A study of Bos taurus with 6 samples.

Results

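The miR-30 family was described in granulosa cells, which surround the oocyte within the ovarian follicle and make its estradiol, in 6 small RNA libraries of cattle. Its members were taken by name, as every mature bovine miRNA whose number is 30, and these were 7 of the 755 mature names in the files. They are bta-miR-30a-5p, bta-miR-30b-5p, bta-miR-30b-3p, bta-miR-30c, bta-miR-30d, bta-miR-30e-5p and bta-miR-30f. Each is listed under 1 precursor, so no read of a member was listed under a second precursor of the same name. The study compared preovulatory dominant follicles (3 libraries) with anovulatory subordinate follicles (3 libraries), both taken from Simmental heifers at day 19 of an estrous cycle that had been synchronized in all animals with analogues of prostaglandin F2-alpha and GnRH. Follicles were sorted into these types by the diameter of their surface. Granulosa cell RNA was then pooled to make the libraries. Both types came from the same heifers, with 1 dominant follicle but many subordinate ones per heifer. A dominant pool therefore rests on few follicles, and the pools of the groups need not hold equally many. How follicles were divided among the pools is not given, and p-values measure the spread between pools.

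A miRNA is a short RNA that guides an Argonaute protein to messenger RNAs, mainly through its seed, bases 2 to 8 from the 5′ end, and lowers their translation and stability. The miR-30 family is a conserved group of paralogs whose 5p forms are known to share a seed, so that their predicted targets largely overlap, while they differ in the bases after it. It is abundant in many epithelial and mesenchymal tissues, and miR-30a is known to act on BECN1, a gene of autophagy. The mature forms of miR-30a, miR-30d and miR-30e are known to differ at very few bases. A read with a sequencing error can then be assigned to the wrong member, and the values of these 3 members are uncertain to that extent. The same limit holds for miR-30b-5p, miR-30c and miR-30f so far as their mature forms resemble each other. It weighs most on miR-30f, which has the fewest reads of these, and was not tested. MiR-30b-3p comes from the other arm of the miR-30b hairpin and has another seed.

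In the RefSeq gene table of assembly ARS-UCD2.0, all 6 precursors were found. The genes of miR-30c and miR-30e are neighbours within 10 kb with no other gene between them, and both lie within the span of NFYC, which encodes a subunit of the transcription factor NF-Y. The genes of miR-30b and miR-30d are likewise neighbours within 10 kb, on another chromosome. The genes of miR-30a and miR-30f share a further chromosome but lie more than 10 kb apart. The counts were made by the authors on assembly UMD3.1, so the table was used for names and for which genes are neighbours, and no positions are given.

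With 1 value per mature miRNA, the totals ranged from 190385 to 311842 reads for preovulatory dominant follicles and from 306932 to 364125 for subordinate ones. Reads were scaled to a common library size (CPM) with edgeR's TMM factors, and 3 reads, the least told from 0 here, equal between 8.86 and 13.9 CPM. MiR-202, a miRNA enriched in gonads, ranged from 43510.0 to 46750.7 CPM in dominant and from 11576.1 to 15231.4 CPM in subordinate follicles. Granulosa cell markers such as FSHR are messenger RNAs, which these small RNA libraries do not measure. By PCR, the paper reports strong FSHR and very negligible CYP17A1, a marker of theca cells, in all its granulosa cell samples. The 7 blood cell miRNAs of the list used here (miR-451, miR-486, miR-144, both arms of miR-142, miR-150 and miR-223) summed to 14206.2, 8901.1 and 1305.6 CPM in dominant replicates 1, 2 and 3 and to between 1365.7 and 2028.8 CPM in subordinate follicles. Of the 6 tested, miR-451 and miR-486 were higher in dominant follicles at a false discovery rate (FDR) of at most 0.1, and none was lower. None of the 7 was at 0 in all libraries, but 3 were near the limit of detection. MiR-142-3p had 1 read in dominant replicate 1 and 1 in subordinate replicate 1, and miR-144 and miR-223 had at most 5 in any library. In dominant replicate 1, miR-486 and miR-451 had 10808.2 and 2265.4 CPM. Both arms of miR-126, a miRNA of endothelium, summed to between 73.2 and 293 CPM in dominant follicles, below the range of 354 to 540 CPM in subordinate ones, and neither arm passed the FDR. The 5 miRNAs of theca and stroma (miR-143, miR-145, both arms of miR-199a and miR-214) summed to between 17602.8 and 27823.2 CPM and between 21064.4 and 35751.2 CPM, respectively, and of them miR-214 was lower in dominant follicles at that FDR. The part of these other cells in the values of the miR-30 members was not tested. In pooled RNA, a change in the number of cells of a type and a change in RNA per cell cannot be told apart.

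The family as a whole took a larger share of the miRNA reads in preovulatory dominant follicles. It had 13776, 10425 and 16826 reads in dominant replicates 1, 2 and 3, and 14654, 14191 and 11358 reads in subordinate replicates 1, 2 and 3. These were 5.30, 5.48 and 5.40% of the reads in dominant follicles, and 4.44, 3.90 and 3.70% in subordinate follicles. The means were 5.39 ± 0.0873% and 4.01 ± 0.381% (SD, n = 3 each), a difference of 1.38 percentage points, and every dominant library was above every subordinate one (two-sided exact permutation test, p = 0.1, which is the lowest that 3 against 3 libraries can give). The exact (Clopper-Pearson) 95% intervals of these shares were at most 0.205 percentage points wide, which covers counting error only. On the TMM scale the sum over the family was 50181.5 ± 2944.8 CPM in dominant and 43085.6 ± 2914.7 CPM in subordinate follicles (SD, n = 3 each). That is a log2 difference of 0.22, or 1.17-fold, again without overlap (exact permutation test, p = 0.1). The median log2 fold change of all 353 miRNAs tested was -0.20, and the family's difference was 0.42 above that median. The median depends on which miRNAs are tested, as given below.

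The members differed in abundance, with ranks that overlapped in part. MiR-30a-5p and miR-30d led, with ranks between 12 and 19 among all mature names, followed by miR-30e-5p with ranks between 17 and 37. MiR-30c and miR-30b-5p ranked between 29 and 55, and miR-30f between 75 and 106. MiR-30a-5p had the most reads in all 3 dominant libraries and in subordinate replicate 3, and miR-30d had the most in subordinate replicates 1 and 2. The log2 ratio of miR-30a-5p to miR-30d was 0.25 ± 0.15 in dominant and 0.03 ± 0.26 in subordinate follicles (SD, n = 3 each), so these neighbours in the order did not differ beyond their spread in subordinate follicles. Within the same-numbered libraries 1, 2 and 3 this ratio was 0.39, 0.16 and 0.10 higher in dominant follicles. MiR-30b-5p and miR-30c could not be ordered in dominant follicles either, with a log2 ratio of 0.02 ± 0.12 (SD, n = 3). In subordinate follicles miR-30c was above miR-30b-5p in every library, with a log2 ratio of miR-30b-5p to miR-30c of -1.22 ± 0.29 (SD, n = 3). Adapter ligation in small RNA libraries favours some sequences over others, so a level of one member against another is less certain than a change of 1 member between groups.

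**Figure D1:**
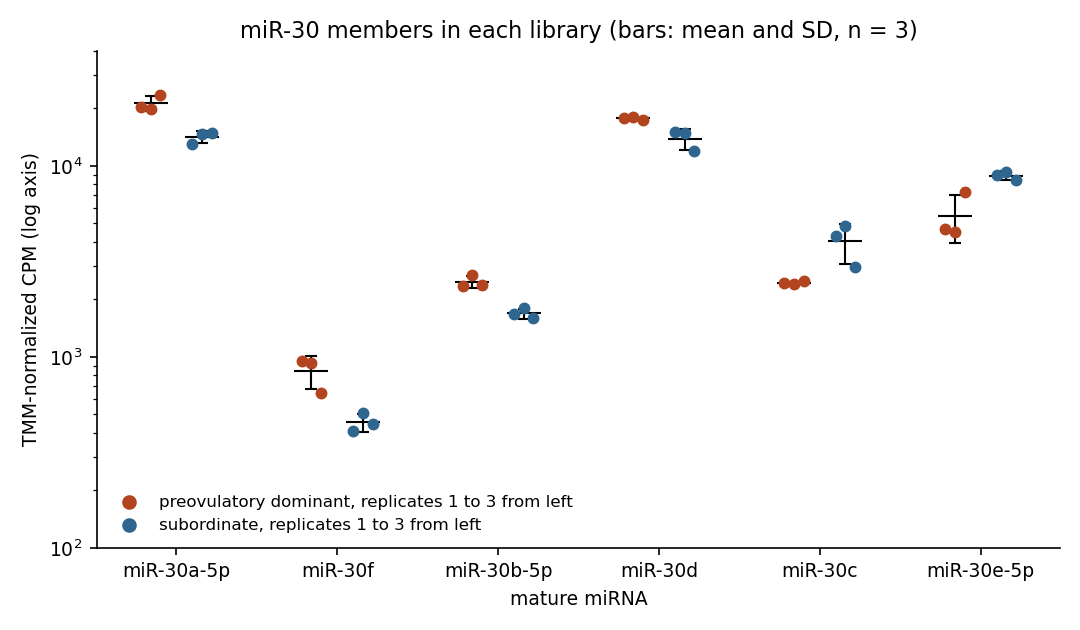
TMM-normalized CPM on a log axis for the 6 miR-30 members with enough reads to be tested. Points are libraries, and bars are the mean and SD of 3 libraries; for miR-30a-5p, miR-30f, miR-30b-5p and miR-30d every dominant library lies above every subordinate one, and for miR-30c and miR-30e-5p every dominant library lies below.

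Of the 7 members, 6 passed the detection rule (1 read or more in 2 or more of the libraries of a group) and were tested. With edgeR's quasi-likelihood test, 3 rose in preovulatory dominant follicles (miR-30a-5p, miR-30f and miR-30b-5p) and 2 fell (miR-30c and miR-30e-5p) at an FDR of at most 0.1. Over all 353 miRNAs tested, 30.3% passed this FDR in either direction, 16.1% upwards and 14.2% downwards. The members are abundant, and among the 134 miRNAs that averaged 50 or more reads 52.2% passed. The TMM-scaled levels did not overlap between groups for all 6 members, against 36.8% of all tested (18.4% with dominant follicles higher and 18.4% with them lower) and 59.7% of the 134 abundant miRNAs. With edgeR 0 members passed the thresholds of the study, which add a fold change of 1 or more on the log2 scale and an unadjusted p up to 0.05 to that FDR. Of all tested, 21.5% passed them (11.9% higher and 9.63% lower), and of the 134 abundant miRNAs 29.9%. DESeq2 likewise had 0 members past these thresholds, beside 68 of all 353 miRNAs. At an FDR of at most 0.1 alone, DESeq2 called 5 members and 100 of the 353. Scaling by total count alone moved the median of all tested miRNAs up by 0.19 and the members with it. Then 4 members (miR-30a-5p, miR-30f, miR-30b-5p and miR-30d) were higher and 0 lower at an FDR of at most 0.1 with edgeR. Of all 353 miRNAs, 96 passed that FDR with this scaling. The unadjusted edgeR p of miR-30e-5p and miR-30c was 0.0323 and 0.0486. MiR-30f then passed the study's thresholds with a log2 fold change of 1.12, as it did at 1.05 without dominant replicate 3. The median log2 fold change over the 6 members was 0.45, beside -0.20 over all 353. With edgeR's own filter and with a minimum of 10 reads in 3 libraries, the median of all tested was -0.08 and -0.04, respectively. The distance of a member from this median therefore depends on the filter.

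MiR-30a-5p, which had the most reads of the family in the 3 dominant libraries, rose in preovulatory dominant follicles. It had 20342.5, 19898.9 and 23363.1 CPM in dominant replicates 1, 2 and 3 and 13017.2, 14671.8 and 14817.7 CPM in subordinate replicates 1, 2 and 3, from between 4199 and 7337 reads per library. All dominant libraries lay above all subordinate ones. The log2 fold change was 0.58 (standard error 0.14, edgeR adjusted p = 0.0221), or 1.50-fold, and 0.78 above the median of all miRNAs. Its adjusted p was between 0.00327 and 0.0913 over the 15 alternatives.

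MiR-30f, the least abundant of the tested members, had the largest fold change in the family. Its reads numbered 271, 200 and 204 in dominant and 138, 157 and 126 in subordinate libraries. These correspond to 956, 928 and 650 CPM in dominant replicates 1, 2 and 3 and 408, 508 and 445 CPM in subordinate replicates 1, 2 and 3. Dominant replicate 3 was the lowest of its group and still above all subordinate libraries. The log2 fold change was 0.90 (standard error 0.22, edgeR adjusted p = 0.0235), or 1.86-fold.

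The neighbouring miR-30b and miR-30d were also higher in dominant follicles, and only the first passed the test. MiR-30b-5p had 2343.0, 2685.7 and 2385.0 CPM in dominant replicates 1, 2 and 3, and 1674.4, 1795.2 and 1591.5 CPM in subordinate replicates 1, 2 and 3. Its log2 fold change was 0.55 (standard error 0.17, edgeR adjusted p = 0.0464), and without subordinate replicate 1 the adjusted p was 0.145 (0.0108 to 0.145 over all alternatives). MiR-30d had 17858.3, 17936.8 and 17443.5 CPM in dominant and 14966.2, 14791.5 and 11892.3 CPM in subordinate replicates 1, 2 and 3. Subordinate replicate 3 was the lowest, and the groups did not overlap. The log2 fold change of miR-30d was 0.35 (standard error 0.15, edgeR adjusted p = 0.128), which did not pass. With total count scaling, edgeR's own filter or a minimum of 10 reads in 3 libraries its adjusted p was 0.0448, 0.0492 and 0.0485, respectively (0.0448 to 0.235 over all alternatives).

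MiR-30c and miR-30e-5p, whose genes lie within NFYC, fell in preovulatory dominant follicles. MiR-30e-5p had 4675.4, 4494.6 and 7257.0 CPM in dominant replicates 1, 2 and 3 and 8930.1, 9315.4 and 8381.1 CPM in subordinate replicates 1, 2 and 3. Dominant replicate 3 was nearer to the subordinate libraries than the other dominant ones but below all of them. MiR-30c had 2434.8, 2407.3 and 2480.6 CPM in dominant and 4279.0, 4816.2 and 2953.7 CPM in subordinate replicates 1, 2 and 3. Here the dominant libraries were nearly equal, and subordinate replicate 3 was the lowest of its group.

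The log2 fold change of miR-30e-5p was -0.70 (standard error 0.21, edgeR adjusted p = 0.0464) and that of miR-30c -0.72 (standard error 0.21, edgeR adjusted p = 0.0417), so subordinate follicles had 1.62-fold and 1.65-fold more. Relative to the median of all miRNAs the changes were -0.50 and -0.52. Both calls were lost with total count scaling and without some of the libraries. Without dominant replicate 1, dominant replicate 2, subordinate replicate 1 or subordinate replicate 2 the edgeR adjusted p of miR-30e-5p was 0.153, 0.123, 0.111 and 0.103 (0.00978 to 0.153 over all alternatives). For miR-30c these values were 0.116, 0.108, 0.120 and 0.118 (0.00466 to 0.162 over all alternatives). With total count scaling they were 0.112 for miR-30e-5p and 0.162 for miR-30c. Both calls held without dominant replicate 3 or subordinate replicate 3. With 1 library left out, the log2 fold change ran from -0.96 to -0.55 for miR-30e-5p and from -0.90 to -0.57 for miR-30c, and both members stayed lower in dominant follicles under all 15 alternatives.

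**Figure D2:**
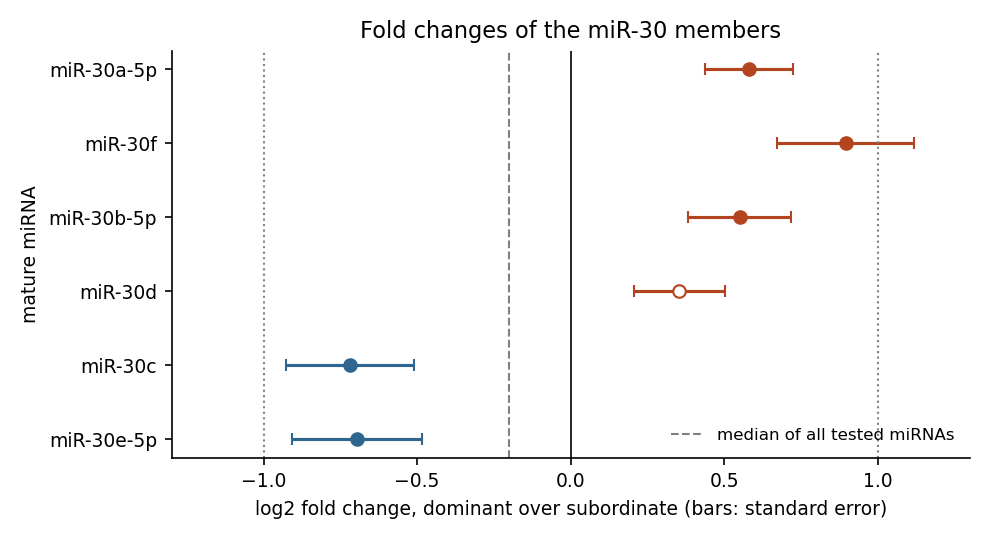
Log2 fold change of preovulatory dominant over subordinate follicles with its standard error for the 6 tested members (edgeR, n = 3 libraries per group). Filled points passed an FDR of at most 0.1, the dashed line is the median of all tested miRNAs (-0.20) and the dotted lines mark the study's fold threshold of 1; miR-30a-5p, miR-30f, miR-30b-5p and miR-30d lie to the right of 0 and miR-30c and miR-30e-5p to the left.

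Dominant replicate 3, which stood apart from the other dominant libraries in miR-30e-5p and miR-30f, also had the lowest sum of blood cell miRNAs, below the subordinate range. Whether blood had a part in these values was not tested. In this library each of the 6 members lay on the same side of all subordinate libraries as in the other dominant ones. Without it the log2 fold changes of miR-30e-5p and miR-30f were -0.96 and 1.05.

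MiR-30b-3p, the other arm of the miR-30b hairpin, was close to the limit of detection. It had 1 read in dominant replicate 2 and 1 read in subordinate replicate 2 and was at 0 in the other 4 libraries, against 3565 reads of miR-30b-5p over the 6 libraries. A count of 0 allows up to 3 reads, which in these 4 libraries is between 8.86 and 10.6 CPM and at most 0.665% of the reads of miR-30b-5p. It failed the detection rule in both groups and was not tested.

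The composition of the family is the share of each member among the miR-30 reads of a library, and it does not depend on how libraries are scaled against each other. MiR-30a-5p made up 42.2 ± 1.26% of the family in dominant and 33.0 ± 3.56% in subordinate follicles (SD, n = 3 each). MiR-30e-5p made up 10.8 ± 2.37% and 20.6 ± 0.309%, respectively, and miR-30c 4.87 ± 0.211% and 9.25 ± 1.66%. MiR-30b-5p made up 4.94 ± 0.561% and 3.92 ± 0.0510%, and miR-30f at 1.70 ± 0.422% and 1.05 ± 0.0959%. For these 5 members the groups did not overlap (two-sided exact permutation test, p = 0.1 each, the smallest possible, and 0.12 after Benjamini-Hochberg adjustment over 6 members). How often the shares of members of other families do not overlap was not computed. Shares within a family have a fixed total, so these 5 are not independent results. MiR-30d took 35.5 ± 2.52% and 32.2 ± 2.46%, and its groups overlapped (exact permutation test, p = 0.2), while within the same-numbered libraries 1, 2 and 3 its share was 2.15, 4.87 and 2.89 percentage points higher in dominant follicles. The exact 95% intervals of a member's share in 1 library were at most 1.90 percentage points wide, which again covers counting error only.

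**Figure D3:**
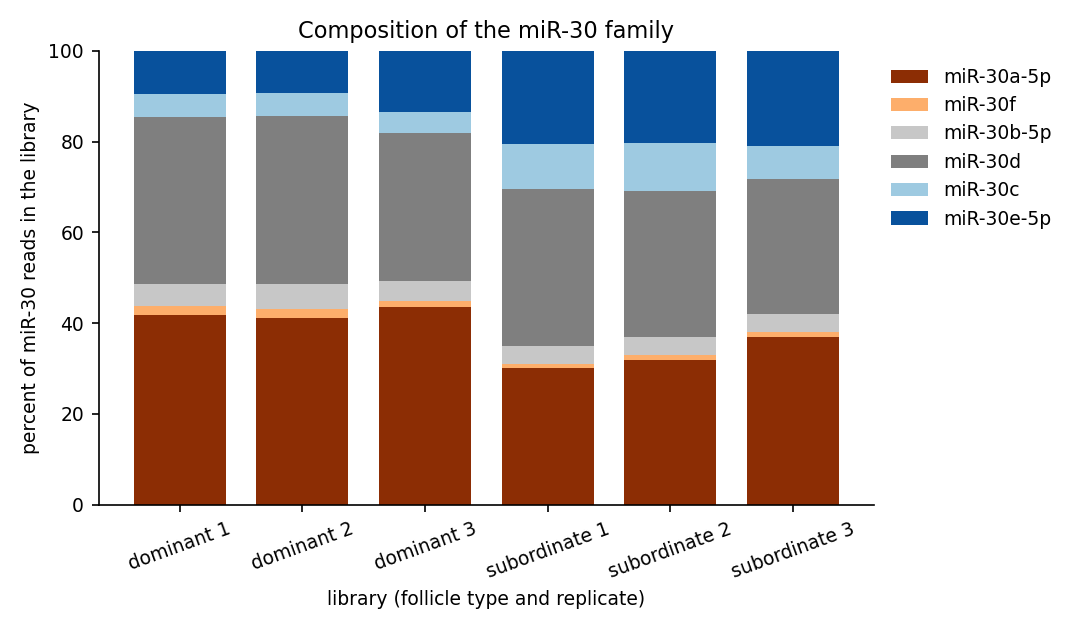
Percent of the miR-30 reads of each library that belong to each member, with 1 bar per library. MiR-30c and miR-30e-5p together take between 14.3 and 18.2% in the 3 dominant libraries and between 28.3 and 30.8% in the 3 subordinate ones; miR-30b-3p, with 2 reads in all, is too small to be drawn.

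Taken by chromosome, miR-30c and miR-30e-5p together made up 14.6, 14.3 and 18.2% of the family in dominant replicates 1, 2 and 3 and 30.5, 30.8 and 28.3% in subordinate replicates 1, 2 and 3. MiR-30a-5p and miR-30f together made up 43.8, 43.1 and 44.8% and 31.0, 33.1 and 38.1%, respectively. The groups overlapped for miR-30b-5p and miR-30d together, with 37.0 to 42.6% in dominant and 33.6 to 38.5% in subordinate follicles. The log2 ratio of miR-30a-5p plus miR-30f to miR-30c plus miR-30e-5p, computed after adding 1 read to each sum, was 1.49 ± 0.16 in dominant and 0.19 ± 0.21 in subordinate follicles (SD, n = 3 each). The difference of 1.31, or 2.47-fold, was free of overlap (two-sided exact permutation test, p = 0.1, the smallest possible, and 0.178 adjusted over the 16 ratios computed). For miR-30b-5p plus miR-30d against miR-30c plus miR-30e-5p the difference was 1.10 (exact permutation test, p = 0.1). Between the first 2 sums, miR-30a-5p plus miR-30f against miR-30b-5p plus miR-30d, it was 0.21 with overlap (exact permutation test, p = 0.3), with 0.39, 0.14 and 0.10 within the same-numbered libraries 1, 2 and 3.

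The ratios between members of the same chromosome were taken next. The log2 ratio of miR-30e-5p to miR-30c was 0.94, 0.90 and 1.55 in dominant replicates 1, 2 and 3 and 1.06, 0.95 and 1.50 in subordinate replicates 1, 2 and 3, a difference of -0.04 (exact permutation test, p = 0.7). Replicate 3 had the highest value in both groups. The log2 ratio of miR-30d to miR-30b-5p ran from 2.74 to 2.93 in dominant and from 2.90 to 3.16 in subordinate follicles, a difference of -0.19 (exact permutation test, p = 0.2). That of miR-30a-5p to miR-30f was between 4.41 and 5.16 and between 4.84 and 5.05, a difference of -0.30 (exact permutation test, p = 0.4). Between same-numbered libraries the ratio of miR-30d to miR-30b-5p was lower in dominant follicles in 3 of 3 pairs, and in the other 2 ratios the pairs differed in sign. In these 3 ratios the groups overlapped, and with 3 libraries each this does not show that they were equal. Grouped instead as miR-30a-5p, miR-30d and miR-30e-5p against miR-30b-5p, miR-30c and miR-30f, the difference in log2 ratio was 0.35 with overlap (exact permutation test, p = 0.2), and 0.37, 0.37 and 0.31 within the same-numbered libraries 1, 2 and 3 (exact sign-flip test, p = 0.25, the smallest that 3 pairs allow). That grouping follows the known resemblance of the mature forms and was not checked on sequences here.

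**Figure D4:**
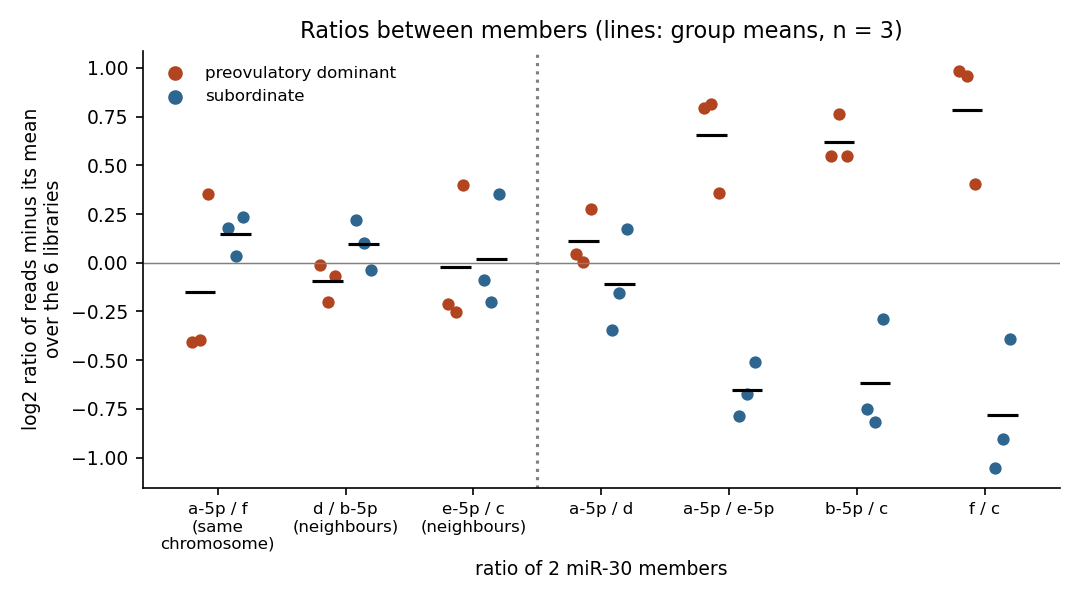
Log2 ratio of the reads of 2 members in each library, minus the mean of that ratio over the 6 libraries. The 3 ratios left of the dotted line, between members whose genes share a chromosome, overlap between the groups, as does miR-30a-5p to miR-30d; the ratios of miR-30a-5p to miR-30e-5p, miR-30b-5p to miR-30c and miR-30f to miR-30c do not, with differences of 1.31, 1.24 and 1.57.

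Whether a member changed relative to the rest of its family was also tested across all families of names that share a number, with edgeR's test of differential usage (diffSpliceDGE). It covered 108 miRNAs in 33 families, of which 2.78% passed an FDR of at most 0.1. No single miR-30 member passed. MiR-30c and miR-30e-5p had usage log2 fold changes of -0.65 and -0.64, with unadjusted p = 0.00999 and 0.0103 in edgeR and an adjusted p of 0.167 for each. MiR-30f followed with 0.47 (edgeR adjusted p = 0.582), and the other 3 members had values between 0.09 and 0.25. With the replicate number as a block, miR-30e-5p and miR-30c passed (edgeR adjusted p = 0.0280 and 0.0444). Without dominant replicate 3, 1 member passed, miR-30e-5p with an edgeR adjusted p of 0.0970. Over all alternatives the adjusted p ran from 0.0280 to 0.838 for miR-30e-5p and from 0.0444 to 0.838 for miR-30c.

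Beside other paralog families, miR-30 had members called in both directions. Its fold changes ran from -0.72 (miR-30c) to 0.90 (miR-30f) on the log2 scale, with 3 of 6 members higher and 2 lower at an FDR of at most 0.1. The 2 lower calls were absent with total count scaling and without dominant replicate 1, dominant replicate 2, subordinate replicate 1 or subordinate replicate 2, as given above. In let-7, a family of differentiation-linked miRNAs, 9 members ran from -0.36 to 0.55 with 1 higher and none lower. In miR-26 the 2 tested members had -0.49 and 0.27, and 1 was lower. Among the other 6 families described, the 3 members of miR-148 and miR-152 had 1 higher and 1 lower, miR-29 had 2 of 4 higher, miR-99 and miR-100 had 3 of 4 lower, and none of 4 miR-181, 4 miR-15/16 and 2 miR-125 members passed. Not all of these members are abundant. The higher one of the first family, miR-152, averaged fewer than 50 reads, as did some of miR-29 and miR-181. The tallies of let-7 and of miR-99 and miR-100 include a 3p arm (let-7a-3p and miR-99a-3p). No test compared the spread of fold changes between families.

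**Figure D5:**
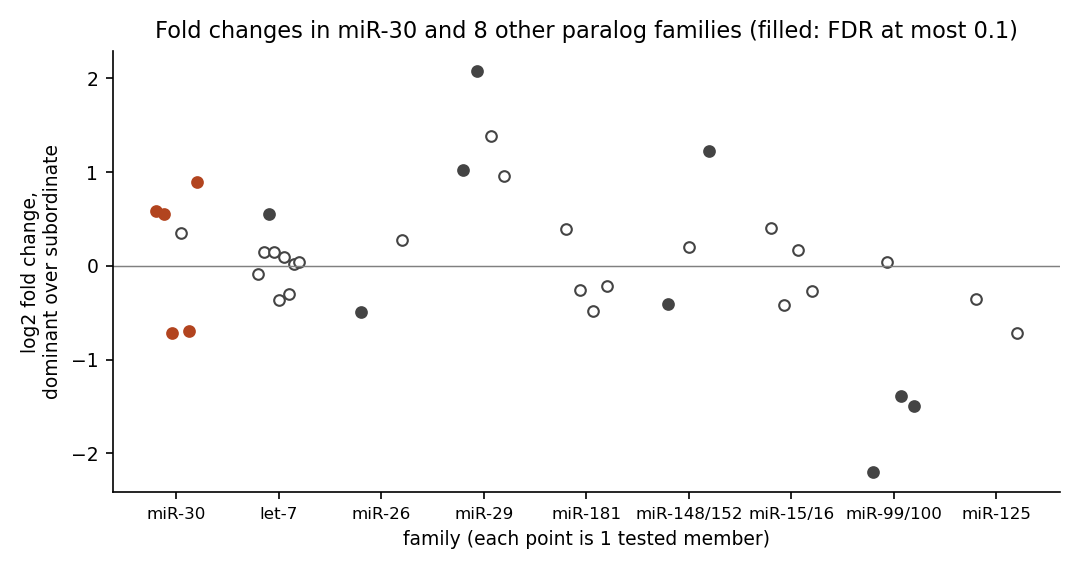
Log2 fold change of preovulatory dominant over subordinate follicles for each tested member of miR-30 and of 8 other paralog families, with filled points for an FDR of at most 0.1 (edgeR). The miR-30 members called lie on both sides of 0, as do those of miR-148 and miR-152, and those of the other families do not.

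As a sum, the family was compared with let-7 and miR-26, a pair of other families with abundant members. The log2 ratio of the miR-30 sum to the let-7 sum was -1.45, -1.33 and -1.38 in dominant replicates 1, 2 and 3 and -1.61, -1.57 and -1.67 in subordinate replicates 1, 2 and 3. All dominant libraries were higher, by 0.23 on average (two-sided exact permutation test, p = 0.1, the smallest possible, and 0.178 adjusted over the 16 ratios). Against the sum of miR-26a and miR-26b the log2 ratio ran from -2.04 to -1.71 in dominant and from -2.79 to -2.33 in subordinate follicles, a difference of 0.69 without overlap (exact permutation test, p = 0.1). The let-7 sum itself differed by -0.01 on the log2 scale between groups, and the miR-26 sum by -0.47 with overlap.

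Among the 95 other miRNAs with at least 50 reads in every library, those with levels most like the family's were taken by Pearson's r of log2 CPM over the 6 libraries. This is a description, since the 6 values fall into the same 2 groups for every miRNA and share the scaling of their library. For the family sum they were miR-186 (r = 0.97), miR-103 (r = 0.93) and let-7b (r = 0.90). For miR-30c plus miR-30e-5p they were miR-140, miR-378 and miR-660 with r between 0.94 and 0.95, and for miR-30a-5p plus miR-30f they were miR-424-5p, miR-107 and miR-202 with r between 0.96 and 0.99. For miR-30b-5p plus miR-30d they were miR-186, let-7b and miR-15a, with r between 0.95 and 0.96.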

How the data were processed

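Small RNA of pooled bovine granulosa cell RNA was sequenced by the authors in 3 libraries of preovulatory dominant and 3 of subordinate follicles. The deposited values are raw counts: the authors called bases with CASAVA 1.8.0, trimmed adapters and removed short and low-quality reads with Cutadapt and Seqtk, mapped with Bowtie to UMD3.1 and counted known bovine miRNAs of miRBase with miRDeep2. How the counting treated mismatches is not given in the sources used here.

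Groups were taken from the sample labels. The largest precursor row of each mature name was used. Counts were tested with edgeR 4.0.16 (R 4.3.3; TMM, quasi-likelihood, follicle type as the only term, Benjamini-Hochberg over all 353 miRNAs with at least 1 read in at least 2 libraries of a group). As standard error, the log2 fold change was divided by the root of its F statistic, without sign. The fit was tested on simulated data with less spread between libraries than here and larger changes than those of the members. That test therefore does not cover changes as small as theirs. Shares and log2 ratios (1 read added) were tested by two-sided exact permutation (scipy 1.17.1). Same-numbered replicates of the groups deviated together in part, with correlations over 194 miRNAs of 0.136, 0.378 and 0.408. Between libraries of different number these were -0.416 to 0.193, and dominant 2 with subordinate 1 was above the lowest same-numbered value. The replicate numbers, given by the labels, were therefore tried as pairing the libraries, and the blocked value is printed where it changes a call. The sources used here do not state that same-numbered pools match, and the main tests used no pairing. Replicates of a group differed by more than sampling noise (chi-square per degree of freedom of at least 18.9). Alternatives were DESeq2 1.42.0, other scalings and filters, summed precursor rows, identical counts taken once, the block and each library left out. The differences of shares and ratios within same-numbered libraries were added after the data were seen. All 7 members are named, with the most alike miRNAs by a correlation rule and the marker lists. Members and lists were chosen with earlier results of these data known. No mature sequences were in the tables used here, so none are printed.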

Additional observations from a re-analysis of the deposited data

How the results depend on the processing

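The number of members past the study's thresholds, 0 with edgeR, became 1 with total count scaling and 5 with no fold change threshold, and was between 0 and 1 when 1 library was left out. Of all 353 miRNAs tested, 76, 70 and 107 passed under these 3 rules, respectively. With 1 library left out, between 54 and 78 miRNAs passed the study's thresholds. The number with an FDR of at most 0.1, 5 (3 higher and 2 lower), was 6 with either stricter filter (4 higher and 2 lower), 4 with total count scaling (4 higher and 0 lower) and between 2 and 5 without 1 library (3 without dominant replicate 1, dominant replicate 2 or subordinate replicate 2, and 2 without subordinate replicate 1), which leaves fewer libraries to the test. The number with changed usage within the family, 0, became 2 with the replicate block and was between 0 and 1 without 1 library. The replicate block changed no other call. The difference in the log2 ratio of miR-30e-5p to miR-30c, -0.04, changed sign without dominant replicate 1 (0.05), dominant replicate 2 (0.07) or subordinate replicate 3 (0.12), with a range from -0.25 to 0.12 over single libraries left out, and the cause was not tested. The family share, the composition of the 6 members and the ratios of the miR-30 sum and of miR-30a-5p plus miR-30f to miR-30c plus miR-30e-5p kept their direction under every alternative run for them, the last with a difference between 1.23 and 1.57. With 3 libraries against 3 these exact tests cannot pass 0.05 (0.2 is the lowest with 2 against 3), so their p says nothing about stability. No group was large enough for a test of single outlying libraries.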
